A study of Mus musculus with 6 samples.

Results

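The classical histone deacetylases are the zinc-dependent enzymes numbered HDAC1 to HDAC11, and their transcripts were examined here in embryonic cortex from which Hdac1 and Hdac2 had been conditionally removed. Of 10 genes on the list (Hdac1, Hdac2, Hdac3, Hdac4, Hdac5, Hdac6, Hdac7, Hdac8, Hdac10 and Hdac11), 8 have at least 1 row in a table of 12041 genes, and Hdac7 and Hdac10 are not analysed here. Every Hdac1 and Hdac2 row was kept, and for each other gene the row whose mean normalized count was highest, which gave 9 rows out of 14379. The study compared 3 libraries of conditional Hdac1 and Hdac2 double knockouts (cKO; columns HM-5, HM-13 and HM-16) with 3 wild-type libraries (WT; columns HC-1, HC-8 and HC-10), all from cortex of C57BL/6 mouse embryos at embryonic day 12.5. The letters HM and HC were read as mutant and control. Values of single libraries are listed in the order HM-5, HM-13, HM-16 for cKO and HC-1, HC-8, HC-10 for WT. The labels give neither the recombinase and the cells it acts in, nor the deleted exons, nor whether WT embryos carried the conditional alleles. They do not say whether each library came from its own embryo, so the spread between libraries may be partly technical.

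Histone deacetylases take acetyl groups off lysines of histones and other proteins, and on chromatin this goes with a more closed state and lower transcription. Class I holds HDAC1, HDAC2, HDAC3 and HDAC8. HDAC1 and HDAC2 work as near-interchangeable catalytic subunits of the Sin3, NuRD and CoREST complexes, HDAC3 works in the NCoR/SMRT complexes, and HDAC8 acts on the cohesin subunit SMC3. Class IIa (here Hdac4 and Hdac5) shuttles between nucleus and cytoplasm and binds MEF2 transcription factors, HDAC6 of class IIb is a cytoplasmic tubulin deacetylase, and HDAC11 is the single class IV member. In neural progenitors HDAC1 and HDAC2 are known to compensate for each other. The comparison asks whether the other members differ where both are lost.

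Reads recovered from the values numbered 9712556 to 11922665 per library. The cortical genes Emx1 (147 to 179 FPKM in cKO and 166 to 200.6 FPKM in WT) and Tbr1 (72.1 to 102 FPKM in cKO and 97.9 to 114 FPKM in WT) were detected in every library, while Pax6 has no row used here. The summed level of the cortical progenitor rows (9 of 10 genes) was 2616 to 2777 FPKM in cKO and 2634 to 2672 FPKM in WT. Vim alone made up 1571 to 1898 FPKM of it across the libraries, so the sum mostly follows Vim. The 7 tested genes of this list had a median log2 fold change of 0.22, with 3 of them below 0. Emx2 among them rose, at 184 to 273 FPKM in cKO and 142 to 167 FPKM in WT, and did not pass without HM-5 or HM-16. The part of these cells in the results below was not tested. One cKO library, HM-13, stood apart, with 29.7% of its reads in the ribosomal RNA row Rn45s, against 0.709% and 0.985% in the other cKO libraries and 0.506% to 2.48% in WT. Results are therefore also given without it. Xist, from the inactive X chromosome, was at 105 FPKM in HM-16 among the cKO libraries and at 155 FPKM in HC-8 among the WT libraries, and under 0.1 FPKM in the others. Hdac6 and Hdac8 lie on the X chromosome.

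Both targeted transcripts fell in cKO cortex but were still detected in every cKO library. FPKM are fragments per kilobase of transcript, here scaled by a size factor set for each library and not by its read total. That factor was 0.804 for HM-13 at 11473715 reads and 1.06 for HM-5 at 10023061 reads. Hdac1 (ENSMUST00000102597, chromosome 4, 129516104 to 129542713, minus strand, GRCm38) had 45.5, 61.0 and 47.4 FPKM in the cKO libraries. The WT libraries had 212, 197 and 193 FPKM. The groups lay far apart and the WT values were tight. The means were 51.3 ± 8.46 FPKM in cKO and 200.8 ± 9.82 FPKM in WT (SD, n = 3 each), and the log2 fold change of log2(FPKM + 1) was -1.96 (SE 0.11, 95% interval -2.22 to -1.70, limma adjusted p = 0.000307). These values rest on 985 to 1036 reads per cKO library and 4062 to 4949 reads per WT library.

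Hdac2 is represented by 2 rows that behaved differently. The first, called full-length Hdac2 here (ENSMUST00000019911; chromosome 10, 36974544 to 37001889, plus strand), is the transcript with all 14 exons. It had 37.6, 61.7 and 47.5 FPKM in the cKO libraries, against 134, 216 and 272 FPKM in the WT libraries. The cKO mean was 23.6% of the WT mean, with a log2 fold change of -2.03 (SE 0.27, 95% interval -2.65 to -1.41, limma adjusted p = 0.00441). Its WT libraries differed 2.03-fold from lowest to highest, whereas those of Hdac1 differed 1.10-fold.

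Transcripts of the ventral telencephalon also varied between libraries. The summed level of the ventral rows present (Dlx2, Gad2 and Gsx2, 3 of 8 genes on that list) was 1.46, 14.8 and 18.2 FPKM in the cKO libraries, against 4.52, 45.5 and 35.1 FPKM in the WT libraries. HM-5 and HC-1, lowest in these genes within their groups, were also lowest in full-length Hdac2. The order of the other libraries differed: HM-13 had more Hdac2 and less of the ventral transcripts than HM-16, and so did HC-10 against HC-8. The part of tissue makeup in the level of Hdac2 was not tested. In whole tissue, fewer cells of a type and less RNA per cell cannot be told apart.

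The second Hdac2 row, called intron-ended Hdac2 here (ENSMUST00000105510; chromosome 10, 36974570 to 36996111), was not lower in the cKO libraries. It had 6.99, 8.40 and 7.005 FPKM in the cKO libraries, against 6.43, 6.85 and 6.59 FPKM in the WT libraries. The lowest cKO library lay just above the highest WT library, and the difference did not pass (log2 fold change 0.15, 95% interval -0.10 to 0.39, limma adjusted p = 0.362). In GENCODE M21 this transcript shares exons 1 to 8 with full-length Hdac2, then continues for 2227 bases into the intron of 3104 bases that follows exon 8, and ends there. Those intronic bases, chromosome 10 from 36993885 to 36996111, make up 68.5% of its length. Of the pair, only intron-ended Hdac2 holds them, and the sequences below show the point where the transcripts part, with the 45 shared bases ending exon 8 in lower case and the next 30 bases of each transcript in capitals.
Full-length Hdac2: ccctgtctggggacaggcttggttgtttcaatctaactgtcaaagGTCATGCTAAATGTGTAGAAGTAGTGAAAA
Intron-ended Hdac2: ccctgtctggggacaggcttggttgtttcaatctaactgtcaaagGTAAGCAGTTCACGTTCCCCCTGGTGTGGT
The capitals of full-length Hdac2 are the start of exon 9 (chromosome 10, 36996989 to 36997018). Those of intron-ended Hdac2 run on unspliced from the exon end (36993885 to 36993914, GRCm38, plus strand). Both transcripts are annotated as coding, with 1464 coding bases in full-length Hdac2 and 912 in intron-ended Hdac2.

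The ratio of full-length Hdac2 to intron-ended Hdac2 was 5.38, 7.35 and 6.78 in the cKO libraries, against 20.8, 31.5 and 41.2 in the WT libraries. The groups did not overlap. The log2 ratio was 2.69 in cKO and 4.91 in WT on average, and a two-sided exact permutation test over the 3 and 3 libraries gave p = 0.1, the smallest that this design allows. Full-length Hdac2 alone already separated the groups and intron-ended Hdac2 varied little, so this outcome was fixed beforehand and adds no support. Each row is a single value without exon detail, so whether the remaining reads of either gene lie in undeleted exons was not tested.

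**Figure D1:**
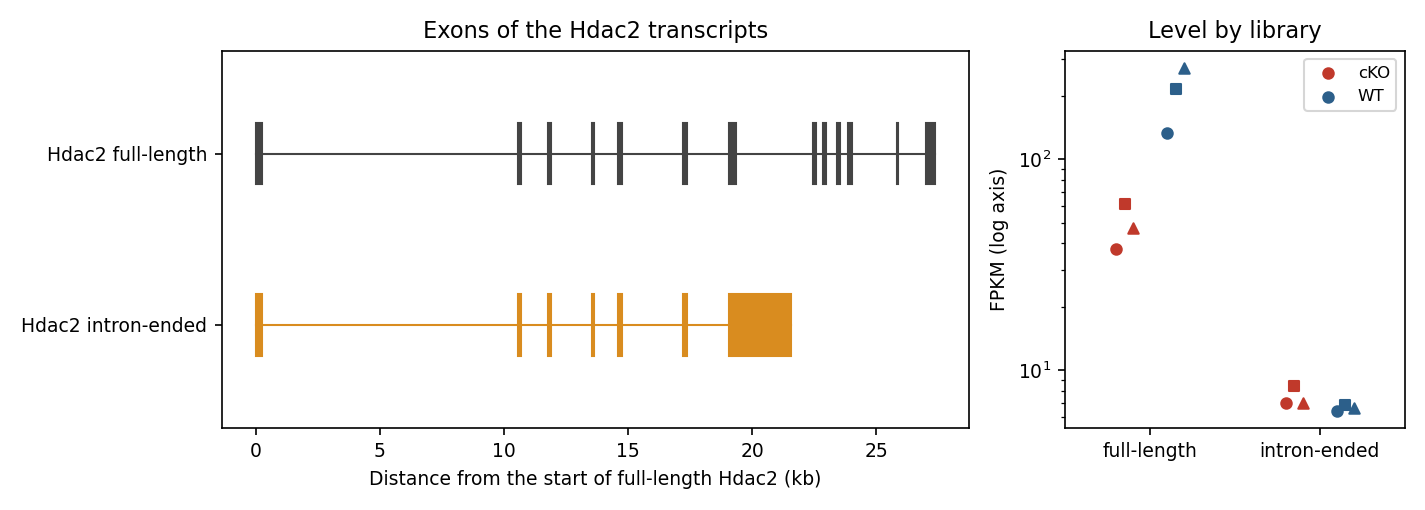
Left, exons (boxes) of full-length Hdac2 and intron-ended Hdac2 by distance in kilobases from the start of full-length Hdac2. Right, FPKM of each row on a log axis, with 1 point per library (cKO red, WT blue): full-length Hdac2 lies between 37.6 and 61.7 FPKM in cKO and between 134 and 272 FPKM in WT, while intron-ended Hdac2 lies between 6.43 and 8.40 FPKM in all 6 libraries.

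Measured library by library, the cKO value was 22.7%, 30.4% and 23.6% of the WT mean for Hdac1 and 18.2%, 29.8% and 22.9% for full-length Hdac2 in HM-5, HM-13 and HM-16. HM-13 had the highest share of both. In the authors' deposited table the log2 fold change is -1.89 for Hdac1 and -1.46 for full-length Hdac2, the second a smaller change than in the limma fit. Without HM-13 the log2 fold changes were -2.09 for Hdac1 (limma adjusted p = 8.2e-05) and -2.21 for full-length Hdac2 (adjusted p = 0.00543). Marker transcripts of cells outside the neural lineage were present in every library. The summed level of the meningeal and mesenchymal rows (9 of 10 genes) was 374, 259 and 416 FPKM in HM-5, HM-13 and HM-16, against 473, 218 and 251 FPKM in HC-1, HC-8 and HC-10. For endothelium and pericytes (7 of 12 genes, among them Cdh5 and Kdr but not Pecam1) it was 109 to 140 FPKM in cKO and 78.5 to 143 FPKM in WT, and for microglia and macrophages (6 of 10 genes, without Csf1r) it was 69.1 to 81.0 FPKM in cKO and 51.1 to 62.6 FPKM in WT, where 2 of the 6 genes rose, against 9.62% of all rows tested. That count was 0 without HM-16, 1 without HM-5 or HC-10 and 3 without HC-1. HM-13 was the lowest of the cKO libraries in the mesenchymal and endothelial sums, and highest in the summed cortical neuron genes. That sum was 799, 1183 and 825 FPKM in HM-5, HM-13 and HM-16, against 1086, 1144 and 1421 FPKM in HC-1, HC-8 and HC-10. Tubb3 made up 611, 895 and 630 FPKM of it in the cKO libraries. HM-13 was the highest cKO library in each gene of that list except Fezf2 and Bcl11b, where it was lowest. The part of any of these cells in the remaining Hdac1 and Hdac2 was not tested.

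The sequence of Hdac1 limits what its reads can show. A processed pseudogene of Hdac1 (Gm10093; chromosome 17, 78491582 to 78493025, GRCm38) matches the Hdac1 transcript at 1435 of 1444 aligned bases (99.4%), with an identical stretch of 450 bases. How reads that fit both places were treated is not given in the sources used here, so the Hdac1 value is uncertain to that extent. Between the Hdac1 and Hdac2 transcripts the longest identical stretch is 17 bases, at 75.3% identity over 1502 aligned positions.

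**Figure D2:**
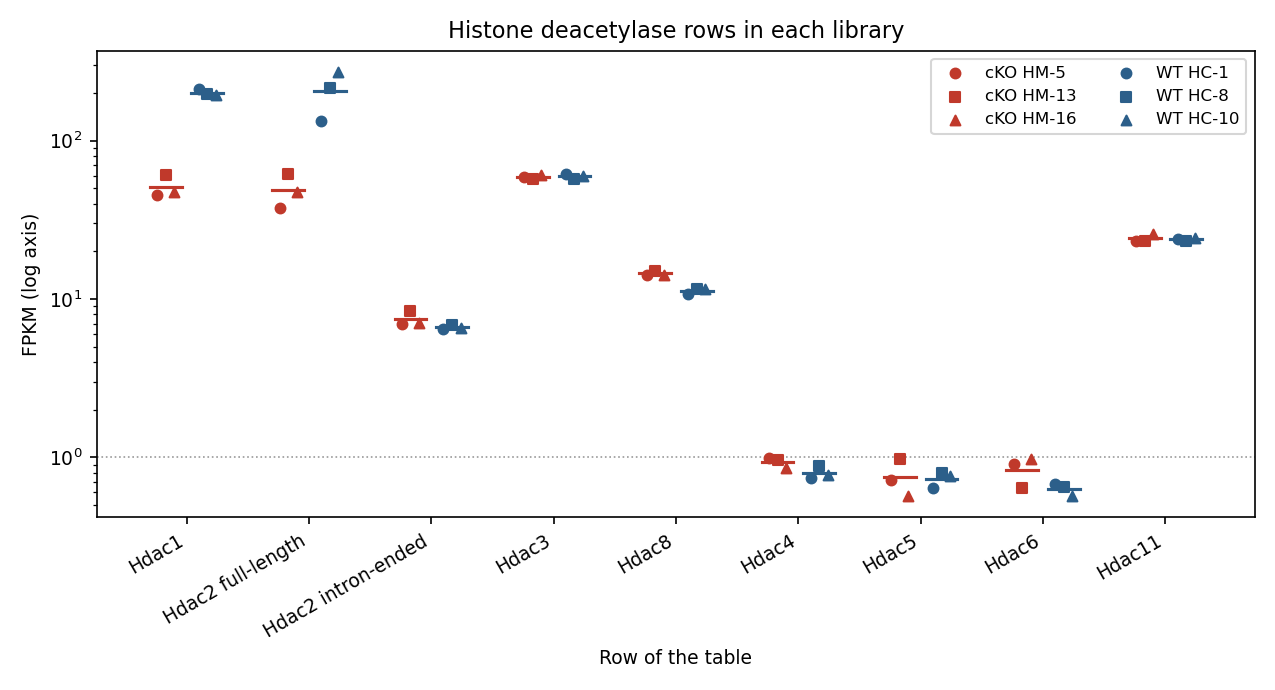
FPKM (log axis) of the 9 histone deacetylase rows, with 1 point per library, cKO in red left of WT in blue and a bar at each group mean. The dotted line marks 1 FPKM. Only the Hdac1 and full-length Hdac2 rows have cKO points several-fold below WT, and the Hdac8 points of cKO (14.3 to 14.98 FPKM) lie above those of WT (10.7 to 11.5 FPKM).

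Of the other class I enzymes, Hdac3 did not pass the test and Hdac8 rose. Hdac3 (chromosome 18, 37936972 to 37955016), the catalytic subunit of the NCoR/SMRT complexes, had 59.1, 57.3 and 60.4 FPKM in the cKO libraries, against 61.7, 57.1 and 59.97 FPKM in the WT libraries. The cKO values lay within the WT range. The means were 58.9 ± 1.56 FPKM in cKO and 59.6 ± 2.33 FPKM in WT (SD, n = 3 each). The log2 fold change was -0.01, and its 95% interval of -0.15 to 0.12 (limma adjusted p = 0.885) corresponds to 90.0% to 109% of WT on the FPKM + 1 scale. This interval rests on 990 to 1458 reads per library.

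Hdac8 (chromosome X, 102284639 to 102505359) had 14.3, 14.98 and 14.3 FPKM in the cKO libraries, against 10.7, 11.5 and 11.5 FPKM in the WT libraries. The lowest cKO library was above the highest WT library, and within each group the libraries lay within 1 FPKM of each other. The means were 14.5 ± 0.416 FPKM in cKO and 11.2 ± 0.472 FPKM in WT (SD, n = 3 each), 129% of WT, with a log2 fold change of 0.34 (SE 0.08, 95% interval 0.16 to 0.52, limma adjusted p = 0.0244). In the authors' deposited table its log2 fold change is 0.34 with an FDR of 0.068, outside an FDR of 0.05. The limma call was lost without HM-5, HM-16, HC-1 or HC-10 (adjusted p = 0.0913, 0.0774, 0.065 and 0.0644) and kept without HM-13 (0.0476) or HC-8 (0.0478). The log2 fold change itself stayed between 0.31 and 0.36 in these 6 fits. The Xist-high libraries, HM-16 and HC-8, had values like those of their groups, and with Xist status in the model Hdac8 still passed (adjusted p = 0.046).

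Hdac1 and full-length Hdac2 together had 83.1, 123 and 94.9 FPKM in HM-5, HM-13 and HM-16, against 346, 413 and 465 FPKM in HC-1, HC-8 and HC-10, so the cKO mean was lower by 308 FPKM. The mean of Hdac8 was higher by 3.25 FPKM. The sum of the class I rows (Hdac1, full-length Hdac2, Hdac3 and Hdac8) was 156, 195 and 170 FPKM in the cKO libraries and 418, 481 and 537 FPKM in the WT libraries, the cKO mean being 36.3% of the WT mean.

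The makeup of the class I transcripts differed. Hdac3 made up 37.7%, 29.4% and 35.6% of that sum in HM-5, HM-13 and HM-16, against 14.7%, 11.9% and 11.2% in HC-1, HC-8 and HC-10. The sum that this share is taken of was itself lower in cKO. Hdac8 made up 7.68% to 9.12% of the sum in cKO and 2.15% to 2.56% in WT. Hdac3 was the highest deacetylase row in HM-5 and HM-16, while in HM-13 full-length Hdac2, Hdac1 and Hdac3 lay at 61.7, 61.0 and 57.3 FPKM. In WT the order was Hdac1, full-length Hdac2 and Hdac3 in HC-1, and full-length Hdac2, Hdac1 and Hdac3 in HC-8 and HC-10. The ratio of Hdac1 to full-length Hdac2 was 1.21, 0.989 and 0.998 in the cKO libraries and 1.58, 0.914 and 0.712 in the WT libraries. Neither target was above the other in all libraries of a group.

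**Figure D3:**
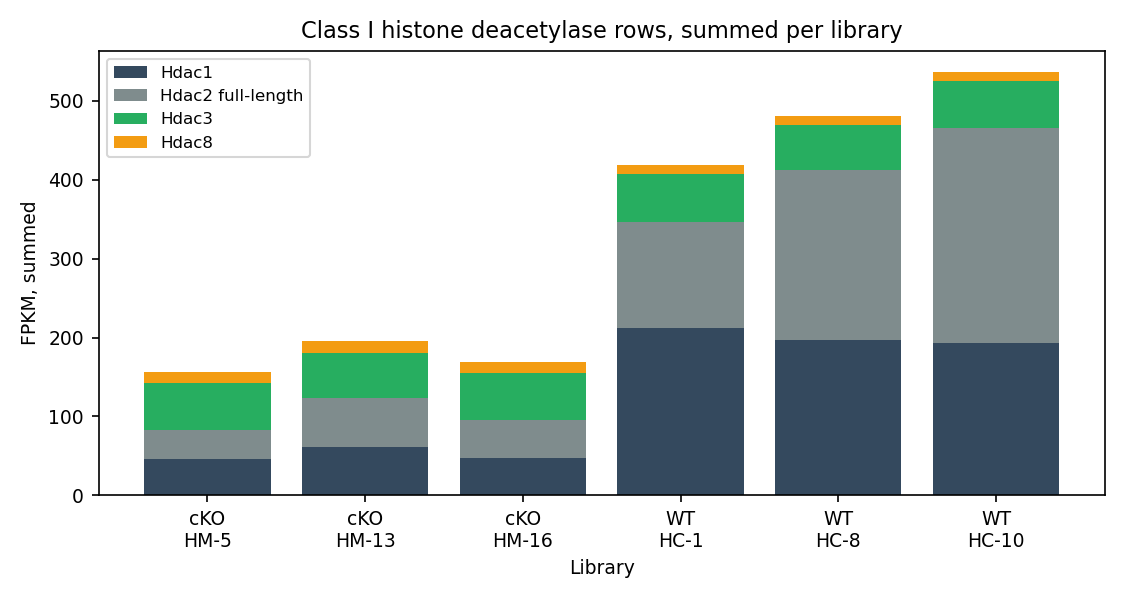
Stacked FPKM of the Hdac1, full-length Hdac2, Hdac3 and Hdac8 rows in each library, cKO left of WT. The columns reach 156 to 195 FPKM in cKO and 418 to 537 FPKM in WT, and the Hdac3 part is of like height in all 6.

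HDAC11, the class IV enzyme, is a fatty-acyl hydrolase as well as a deacetylase and is rich in brain. Hdac11 (chromosome 6, 91156665 to 91174692) had 23.4, 23.2 and 25.8 FPKM in the cKO libraries, against 23.99, 23.3 and 24.3 FPKM in the WT libraries. The groups overlapped, with a log2 fold change of 0.01 (95% interval -0.15 to 0.18, limma adjusted p = 0.906). It was the fourth most abundant of the deacetylase genes in all 6 libraries, after Hdac1, Hdac2 and Hdac3 and ahead of Hdac8. Other annotated genes overlap the spans, introns included, of Hdac11 (Gm14573 and Gm44002), Hdac8 (Gm14858), Hdac4 (Gm37048, Gm26720 and Gm37036) and Hdac5 (Mir8101). Without knowledge of strand in the counting, whether reads of these genes entered the deacetylase rows is not known.

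The class II rows were too low for the fit, which needed 1 FPKM in at least 3 libraries. Hdac4 (chromosome 1, 91928779 to 92180341), a class IIa repressor of MEF2 factors, had 0.993, 0.960 and 0.855 FPKM in the cKO libraries, against 0.735, 0.882 and 0.776 FPKM in the WT libraries. The lowest cKO value lay within the WT range. Hdac5 (chromosome 11, 102195744 to 102230124), its closest relative, had 0.717, 0.969 and 0.571 FPKM in cKO and 0.639, 0.800 and 0.761 FPKM in WT, so the cKO values spanned all those of WT. Hdac6 (chromosome X, 7930124 to 7947838), the tubulin deacetylase, had 0.903, 0.639 and 0.969 FPKM in cKO and 0.681, 0.648 and 0.572 FPKM in WT. HM-5 and HM-16 lay above all WT libraries and HM-13 among them.

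These rows rest on few reads, 67 to 91 per library for Hdac4, 26 to 44 for Hdac5 and 28 to 52 for Hdac6. The planned limma fit without a filter called none of them. Its log2 fold changes were 0.11 for Hdac4 (adjusted p = 0.495), 0.01 for Hdac5 (adjusted p = 0.962) and 0.17 for Hdac6 (adjusted p = 0.332). The pseudocount of 1 FPKM is above their levels and makes such changes smaller. With limma's voom on the recovered reads and no filter, a setting added after seeing the data, the log2 fold changes were 0.23 for Hdac4 (95% interval -0.14 to 0.59, adjusted p = 0.389), -0.01 for Hdac5 (-0.57 to 0.55, adjusted p = 0.979) and 0.40 for Hdac6 (-0.11 to 0.91, adjusted p = 0.272). The upper ends of these voom intervals are 1.51-fold for Hdac4, 1.46-fold for Hdac5 and 1.87-fold for Hdac6. A rise of the size seen for Hdac8 (1.29-fold) was therefore not excluded for these rows.

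The low levels are those of a row and need not be those of the gene. The row for Hdac6 carries a retained-intron transcript with no coding sequence, 1 of 10 annotated for the gene, and that for Hdac5 is 1 of 20 transcripts, with 2.16% of its bases not shared with another. Hdac4, equally low, has 49.7% of its bases to itself, and Hdac3, at a far higher level, has 8.22%, so the members do not follow 1 order in this. For comparison, the row of the glycolytic enzyme gene Gapdh, which has 13 annotated transcripts, holds only 6 to 23 reads per library. Across 10160 genes, the median level was 2.70 FPKM for the 2312 genes whose transcript has up to 5% of its bases to itself, 9.46 FPKM for the 3294 genes with 50% to under 100%, and 7.31 FPKM for the 1334 genes with 100%. How reads shared by several transcripts were counted is not given in the sources used here, and its part in these levels was not tested. Levels are thus compared between genes here only as levels of their rows, and a fold change between groups compares the same row.

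**Figure D4:**
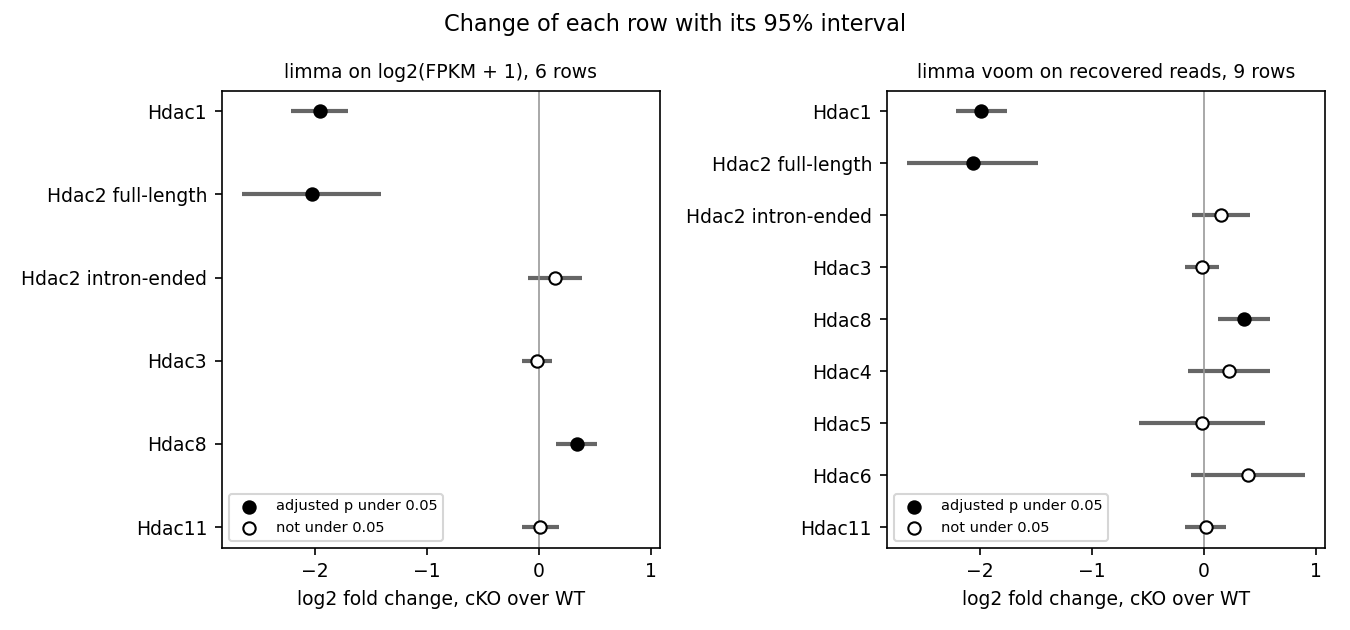
Log2 fold change (cKO over WT) of each histone deacetylase row with its 95% interval, from limma on log2(FPKM + 1) for the 6 rows past the FPKM filter (left) and from voom on recovered reads without a filter for all 9 rows (right). Filled points had an adjusted p under 0.05: Hdac1 and full-length Hdac2 near -2.0 and Hdac8 at 0.34 and 0.36.

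Of the 6 histone deacetylase rows that could be tested, 3 were called, in a comparison where 18% of 9360 rows were called in either direction. The call for Hdac8, higher in cKO, stands beside 9.62% of all rows, and those for Hdac1 and full-length Hdac2, lower in cKO, beside 8.39%. Outside Hdac1 and Hdac2, 1 of 3 tested rows (Hdac3, Hdac8 and Hdac11) was called, and with so few rows that share cannot be set apart from the background. The groups did not overlap for 4 of the 6 rows, against 39.1% of all rows tested. Hdac8 and intron-ended Hdac2 were higher without overlap, as were 19.5% of all rows, and Hdac1 and full-length Hdac2 were lower without overlap, as were 19.6%. Without HM-13 the same 3 rows were called, and the log2 fold changes were 0.32 for Hdac8, 0.07 for intron-ended Hdac2, 0.00 for Hdac3 and 0.04 for Hdac11.

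Genes whose products work with the deacetylases were called at shares near that of all rows tested (18%). Of 28 tested genes for subunits of the Sin3, NuRD, CoREST, NCoR/SMRT, MiDAC and MIER complexes, 2 rose and 4 fell (21.4% called), with a median log2 fold change of -0.02, against -0.01 over all rows tested. Sap30l, a Sin3 subunit, had 52.4, 48.3 and 47.6 FPKM in the cKO libraries, against 35.4, 36.6 and 38.3 FPKM in the WT libraries (134% of WT, limma adjusted p = 0.00756). The groups were clearly separate. Ing2, a Sin3 subunit that reads methylated histone tails, rose too, with 4.80 ± 0.255 FPKM in cKO and 3.01 ± 0.466 FPKM in WT (SD, n = 3 each; limma adjusted p = 0.0241).

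Those that fell included Chd3, a remodelling ATPase of NuRD, with 70.7, 70.4 and 81.4 FPKM in cKO against 93.8, 91.4 and 93.9 FPKM in WT (79.7% of WT, limma adjusted p = 0.0203). The histone chaperone Rbbp7, shared by Sin3 and NuRD, had 50.3 ± 3.18 FPKM in cKO and 64.4 ± 5.41 FPKM in WT (SD, n = 3 each; limma adjusted p = 0.026). The related Rbbp4 (means of 216 FPKM in cKO and 249 FPKM in WT, limma adjusted p = 0.0441) and the NCoR subunit Tbl1x (73.3 FPKM in cKO and 88.5 FPKM in WT, adjusted p = 0.0466) also fell, both named after their values were seen. These calls depended on single libraries. The list had 3 up and 4 down without HM-13, 1 up and 1 down without HC-1 or HM-16, 1 up and 0 down without HM-5, 2 up and 0 down without HC-10, and 1 up and 3 down without HC-8. Sap30l kept its call each time, Chd3 lost it without HM-5, HC-1 or HC-10, Ing2 without HM-5, HM-16, HC-1 or HC-8, and Rbbp7 without HM-5, HM-16, HC-1 or HC-10.

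Of 13 tested partners and regulators of class IIa enzymes, 1 rose and 2 fell (23.1% called, median log2 fold change 0.00). Ywhae, a 14-3-3 protein that holds phosphorylated class IIa enzymes in the cytoplasm, had 114, 117 and 116 FPKM in the cKO libraries and 144, 143 and 152 FPKM in the WT libraries (79.1% of WT, limma adjusted p = 0.00741). Another 14-3-3 gene, Ywhah, had 219 ± 9.46 FPKM in cKO and 261 ± 15.7 FPKM in WT (SD, n = 3 each; limma adjusted p = 0.0393). Prkd1, a kinase that sends class IIa enzymes out of the nucleus, had 20.4 ± 1.56 FPKM in cKO and 14.2 ± 2.37 FPKM in WT (SD, n = 3 each; limma adjusted p = 0.0311). Ywhae passed in all 6 fits that leave out a library, while Ywhah and Prkd1 each lost the call in 4 of 6 fits (highest adjusted p = 0.151 and 0.119). This list had 3 up and 2 down without HM-13, 0 up and 1 down without HM-5 or HM-16, and 0 up and 2 down without HC-8.

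Among 10 tested substrates and partners of HDAC6, 0 rose and 2 fell (20% called), with a median log2 fold change of -0.13. Prdx1, a peroxide-reducing enzyme, had 400.2, 388 and 392.2 FPKM in the cKO libraries and 582, 496 and 552 FPKM in the WT libraries (72.4% of WT, limma adjusted p = 0.00719). Tuba1b, an α-tubulin gene whose reads can be shared with close relatives, had 1190, 1259 and 1223 FPKM in cKO and 1847, 1556 and 1738 FPKM in WT (71.4% of WT, limma adjusted p = 0.0105). It lost its call without HM-5 or HM-16 (adjusted p = 0.057 and 0.0559). Leaving out HM-13 gave 4 genes that fell, and leaving out HM-5 or HM-16 gave 1.

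Enzymes outside the classical family but with the same or the opposite reaction were also counted. Of 7 sirtuins, the NAD-dependent deacylases, 3 have a row and 2 were tested; limma called 0, and 1 had an unadjusted p under 0.05. Sirt7, a nucleolar sirtuin, had 32.2, 31.6 and 34.3 FPKM in cKO and 27.7, 24.4 and 30.5 FPKM in WT (log2 fold change 0.24, limma adjusted p = 0.103), and Sirt6, which acts at chromatin, 3.97 ± 0.64 FPKM in cKO and 4.79 ± 0.418 FPKM in WT (SD, n = 3 each; limma adjusted p = 0.263). Voom also called 0, while scaling to library totals without Rn45s called Sirt7 (adjusted p = 0.0418). Of 7 tested histone acetyltransferases, which add the marks that deacetylases remove, 0 rose and 1 fell (14.3% called, against 18% of all rows tested): Kat8, a histone H4 acetyltransferase, with 18.7, 22.7 and 20.4 FPKM in cKO against 30.6, 24.5 and 28.6 FPKM in WT (73.7% of WT, limma adjusted p = 0.0344). Its call was lost without HM-5, HM-16, HC-1 or HC-10 (highest adjusted p = 0.128). With scaling to library totals, none of the 10 genes named above as called from these lists by the smallest p passed.

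**Figure D5:**
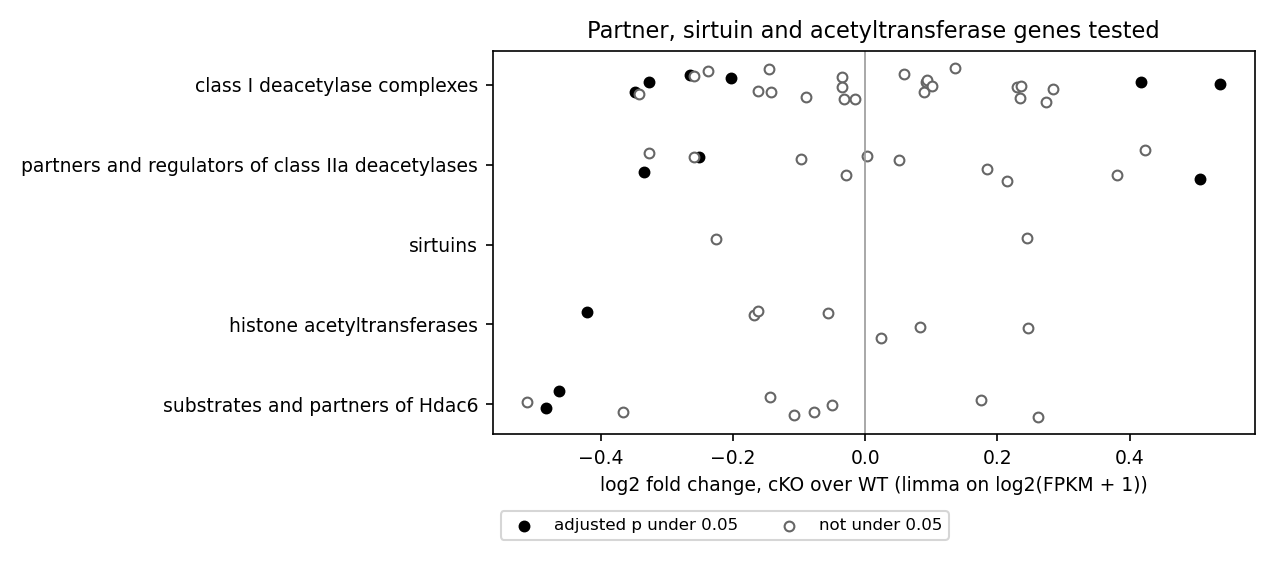
Log2 fold change (cKO over WT) of each tested gene in the lists of deacetylase partners, sirtuins and acetyltransferases, with 1 point per gene and filled points for an adjusted p under 0.05. All values lie between -0.6 and 0.6, far from those of Hdac1 (-1.96) and full-length Hdac2 (-2.03).

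Profiles over the 6 libraries were compared by the root mean square distance of log2(FPKM + 1), each taken relative to its WT mean. Predicted genes, clone names and pseudogenes were left out of this comparison. Hdac1 and full-length Hdac2 lay at a distance of 0.35 from each other. Tfap2e, a transcription factor gene of the AP-2 family, was nearest to both, at 0.25 from Hdac1 and 0.28 from full-length Hdac2, and Fgf15, a secreted growth factor gene, lay at 0.41 and 0.45. Over the tested genes kept, the median distance was 1.40 from Hdac1 and 1.49 from full-length Hdac2. Profiles are relative to the WT mean, so these distances mostly follow the change between groups. Hdac1 and full-length Hdac2 were both targeted and both fell, so their closeness and the large medians add no support. Tfap2e had 0.292, 0.384 and 0.314 FPKM in cKO and 3.82, 3.56 and 6.03 FPKM in WT, so by FPKM alone it was 13.5-fold lower in cKO, and the pseudocount brings it level with the 3.91-fold and 4.23-fold lower Hdac1 and full-length Hdac2. Nearest to Hdac8 were Tsen54 (0.01), Maml3 (0.02) and Myo1a (0.03), against a median of 0.31, and limma called none of these 3 (adjusted p = 0.0549, 0.0592 and 0.0665). By FPKM alone they were at 165%, 133% and 147% of WT, against 129% for Hdac8. Here too the pseudocount brings low rows level with a higher one.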

How the data were processed

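The authors deposited 1 table of 14379 rows with FPKM for 6 libraries, per the file headers. The deposited columns also hold the mean normalized count of each row (a signal averaged over libraries), a log2 fold change, a p-value and an FDR. Per the submitters' processing notes, the build was mm10 and the tools named are DESeq2 1.22.1, R 3.4.1, featureCounts 1.6.1, STAR 2.5.4b and bcl2fastq 1.8.4. The sources used here give neither annotation nor strandedness. Which replicate a column is was not given.

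Whole reads were recovered from FPKM and the mean normalized count. In each library 100% of values came out whole within 0.001 of a read. One row per symbol (highest mean normalized count), plus every Hdac1 and Hdac2 row, was tested if 3 or more libraries reached 1 FPKM. The test was limma 3.58.1 (R 4.3.3) on log2(FPKM + 1) with an intensity trend and Benjamini-Hochberg adjustment over 9360 rows. An adjusted p under 0.05 was called, and "rose" and "fell" are used for calls. The fit was tested on simulated data. Alternatives were other pseudocounts, filters, scalings and row choices, voom on the recovered reads, no trend, an Xist covariate and leaving out each library. Transcript structures are from GENCODE M21 (GRCm38), and sequences from its transcripts, aligned with Biopython 1.88.

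The members and lists were chosen with earlier results of these data known. Up to 4 called genes with the smallest p were named from each list, or 2 where none was called, and the 3 nearest profiles of each called member. One result on the marker lists is not reported here.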

Additional observations from a re-analysis of the deposited data

How the results depend on the processing

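Hdac1 and full-length Hdac2 kept their direction and their calls in all 17 other settings, with log2 fold changes of -2.09 to -1.88 and -2.31 to -1.80. Hdac8 stayed above 0 in all 17 (0.25 to 0.39). Beside the 4 fits with 1 library left out given above, it lost its call with quantile normalization (log2 fold change 0.25, adjusted p = 0.0739) and with scaling to library totals, which count the Rn45s reads of HM-13 (0.25, adjusted p = 0.702). Intron-ended Hdac2, Hdac3 and Hdac11 passed in none of these settings (lowest adjusted p = 0.234, 0.641 and 0.531), and Hdac3 and Hdac11 changed sign in 4 settings each. The number of histone deacetylase rows called was 3, or 2 wherever Hdac8 was lost. Over all rows, the count of 1685 ranged from 511 to 1773 with 1 library left out (511 without HM-5, 545 without HM-16, 1103 without HC-1 and 888 without HC-10) and was 497 with library totals. The cause was not tested. No paired analysis was possible because the columns carry no replicate number of the labels.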

Other observations

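Hdac9, a class IIa gene, was not on the list of members, and its 2 rows were looked at after their values were seen. One had 0.379, 0.341 and 0.364 FPKM in the cKO libraries, against 0.141, 0.159 and 0.212 FPKM in the WT libraries, over 7 to 19 reads per library, and the p-value in the authors' deposited table is 0.0624. The other, over 4 to 17 reads, had 0.143, 0.439 and 0.281 FPKM in cKO and 0.096, 0.360 and 0.405 FPKM in WT, with full overlap. A second Hdac3 row, left out by the choice of rows, had 0.623, 0.727 and 1.71 FPKM in cKO and 0.975, 1.11 and 1.47 FPKM in WT, over 8 to 23 reads per library. It carries the same transcript identifier as the Hdac3 row used, and the 2 Hdac9 rows also share one. Normalized counts per FPKM, per kilobase of that Hdac3 transcript, were 6.74 for this row and 10.6 for the row used. An identifier therefore need not describe exactly what a row counts, here or for the other rows.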
